A study of Mus musculus with 18 samples.

Results

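Untreated tumours of the LL2 line were compared with untreated tumours of the CT26-NY-ESO-1 line. LL2 (LL/2, Lewis lung carcinoma) is a transplantable lung tumour line of C57BL/6 mice. CT26 came from a colon tumour of a BALB/c mouse, and CT26-NY-ESO-1 (here CT26NYESO1) is a CT26 line that bears the name of a human tumour antigen, NY-ESO-1. The sources used here do not say how that line was made or whether it is 1 clone, and the human antigen gene was not analysed here. The comparison used 6 of the series' 18 bulk RNA libraries, the 3 controls of each line, chosen by their labels. Their tumours grew under the skin of BALB/cJ or C57BL/6J mice and were taken on day 14 with no OK-432, a bacterial preparation that was injected into the tumours of the other groups for 24 hours. The sources used here do not say what, if anything, went into the control tumours. The labels name both strains without saying which line grew in which, and BALB/cJ hosts for CT26NYESO1 and C57BL/6J hosts for LL2 are assumed here from the origin of each line. If so, tumour line and host strain both differ between the groups, and their parts in any difference cannot be told apart. The labels do not name the mouse behind each library, so the p-values rest on how far these libraries spread, and part of that spread may be technical.

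A tumour piece holds cancer cells together with host leukocytes, vessels and stroma, and each library is the sum of them. Fewer cells of a type and less RNA per cell cannot be told apart in such material. As background, interferon gamma from T cells and natural killer cells acts on cancer and host cells through transcription factors such as Irf1, which switch on guanylate-binding proteins, immunity-related GTPases, chemokines such as Cxcl9 and the machinery that loads peptides on MHC molecules. Tumour lines also keep traits of their cell of origin and their own history, among them keratins, homeobox genes and imprinted genes.

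The values were TPM, a length-corrected share of each library's transcripts that keeps no record of its depth. Libraries correlated at a Pearson r of 0.9894 to 0.9943 within a line and at 0.8621 to 0.8796 between lines, across genes, which are not independent replicates. Mitochondrially encoded genes took 5.91 to 6.63% of TPM in CT26NYESO1 and 7.17 to 7.33% in LL2. Within their groups, CT26NYESO1 library 2 was the lowest and LL2 library 2 the highest for many interferon, MHC and T cell genes, and results that turn on 1 library are given with and without it. Transcripts of Ddx3y, Eif2s3y, Kdm5d and Uty, all on the Y chromosome, were listed at 0 in all 6 libraries. Xist, the RNA that coats the inactive X chromosome, was at 27.2, 27.2 and 19.8 TPM in CT26NYESO1 and 116, 100.2 and 91.2 TPM in LL2 (2.02).

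Genes known to differ between the assumed strains were looked at next. Cancer cells carry the genome of their line's own origin, so these values cannot show which host a line grew in. H2-Ea, an MHC class II gene that C57BL/6 mice do not express, was listed at 517, 236 and 372 TPM in CT26NYESO1 and at 0 in all 3 LL2 libraries. Ifi202b, an interferon-inducible gene that is nearly silent in C57BL/6 mice, was at 187, 154 and 168 TPM and at 0 in all 3. Nnt, a mitochondrial transhydrogenase that carries a deletion in C57BL/6J, did not follow the assumed strains, with 47.9, 47.1 and 45.3 TPM in CT26NYESO1 and 63.5, 59.1 and 60.6 TPM in LL2. Pla2g2a, a secreted phospholipase, was listed at 0 in all 6. Of the 9 tested genes on the list of known strain differences, 4 (44.4%) were at least 2-fold lower in LL2, against 10.2% of all genes tested. Ly6a and Ly6e were the others, and whether their direction follows the assumed strains was not tested. Few listed markers of gut and lung epithelium were high enough to test, 3 of 15 and 5 of 15. At 2-fold 1 gut gene was lower in LL2 (Krt20), and 1 lung gene was higher (Hopx) and 1 lower (Sox2). Summed gut levels were 32.5 to 51.3 TPM in CT26NYESO1 and 20.7 to 21.5 TPM in LL2. Summed lung levels were 72.3 to 76.2 TPM in CT26NYESO1 and 106 to 109.7 TPM in LL2. Nkx2-1, the lung lineage factor, and Cdx1 and Hnf4a, factors of gut epithelium, were listed at 0 in all 6 libraries, and Epcam, a general epithelial adhesion molecule, reached at most 0.304 TPM.

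The lines differed across much of the transcriptome. A gene was tested if 3 or more of the 6 libraries had 1 TPM or more. Of 15232 such genes, 10395 (68.2%) differed at an adjusted p under 0.05 in limma, a linear model with a spread shared across genes. Higher in LL2 were 6165 genes (40.5%) and lower 4230 (27.8%). With a difference of at least 2-fold as well, 3084 genes were called (20.2%), 1533 higher in LL2 (10.1%) and 1551 lower (10.2%), and these shares are the background for every list below. In 11065 genes (72.6%) the groups did not overlap. All log2 differences are LL2 minus CT26NYESO1 on the log2(TPM + 1) scale, which understates the differences of low genes, with the standard error after ±. Their median over all genes tested was 0.11. Rescaling by median-of-ratios size factors moved that median to 0.00 and the share of calls that were higher in LL2 from 59.3 to 49.5% (for 2-fold calls, from 49.7 to 43.1%). A list's median is therefore to be read against 0.11.

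The 12 largest differences in each direction were mostly genes present in one line and nearly absent from the other. Krt8, a keratin of simple epithelia, was listed at 0.117, 0 and 0 TPM in CT26NYESO1 and at 261, 146 and 204 TPM in LL2. It was the largest gene higher in LL2, at 7.59 ± 0.193 on the log2 scale (limma adjusted p = 4.81e-08), and lies at chromosome 15, 101996698 to 102004482 of mm10. Nptx1, a secreted neuronal pentraxin, went from at most 0.0479 TPM in CT26NYESO1 to 178, 165 and 149 TPM in LL2 (7.32 ± 0.0904, adjusted p = 3.33e-10 in limma). Both groups were tight for Nptx1, and no library of either gene came near the other group.

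Matrix and secreted-signal genes stood beside them. Mmp3, a matrix metalloproteinase that cuts proteoglycans and fibronectin, was at 13.4, 13.5 and 3.27 TPM in CT26NYESO1 and at 549, 885 and 587 TPM in LL2 (6.1 ± 0.55, limma adjusted p = 0.000292). The spread among CT26NYESO1 libraries was wide for Mmp3, with library 3 lowest, but small against the gap. Wnt7b, a Wnt ligand (5.92), and Ntn1, the guidance cue netrin 1 (5.5), were also among the 12, as was Ccbe1, a secreted factor of lymphatic growth (5.22). Rhox2d, Rhox2h and Rhox2g, homeobox genes of an X-linked cluster, were listed at 0 in every CT26NYESO1 library and at 46.5 to 97.1 TPM in LL2. They are near-identical copies, so the split of reads among them is uncertain. Nxf3 (6.13), an X-linked relative of the RNA export factor Nxf1, Bnc1 (5.6), a zinc finger factor, and Peg10 (5.02), a retrotransposon-derived imprinted gene, completed the 12. Parental CT26 controls held Peg10 at 33.7 ± 3.24 TPM and Bnc1 at 38.9 ± 1.26 TPM (SD, n = 3, as for every CT26 level below), so their near absence was not common to both CT26-derived lines.

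Among genes lower in LL2 the largest was Gbp2b, an interferon-induced GTPase at chromosome 3, 142594847 to 142619179. It was listed at 584, 276 and 593 TPM in CT26NYESO1 and at 0.0538, 0.13 and 0.0945 TPM in LL2 (-8.71 ± 0.309, limma adjusted p = 3.24e-06). Baiap2l1, an adaptor that shapes the actin cortex, stood at 756, 814 and 773 TPM against 3.53, 2.05 and 2.51 TPM (-7.74 ± 0.134, adjusted p = 7.9e-09 in limma). In parental CT26 controls Baiap2l1 was at only 6.02 ± 5.45 TPM. Clca3a1, Klk10 and Cldn6 had the same order, high in CT26NYESO1 and low in both LL2 and CT26. Clca3a1, a secreted regulator of chloride channels, averaged 200.1 ± 19 TPM in CT26NYESO1, 0.374 ± 0.0188 TPM in LL2 and 2.46 ± 1.84 TPM in CT26. Cldn6, an embryonic tight junction protein, averaged 87.2 ± 24.5, 0.0653 ± 0.0324 and 1.58 ± 0.8 TPM in that order.

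Other large differences were shared with parental CT26. Ifi202b was at 225 ± 13 TPM and H2-Ea at 209 ± 131 TPM in CT26, against 0 in every LL2 library. Rpl39l, a ribosomal protein paralog, and H2-Q2, a nonclassical MHC class I gene, were shared too. Rpl39l was at 163, 201 and 195 TPM in CT26NYESO1 and H2-Q2 at 74, 50.1 and 71.6 TPM, and both were under 1 TPM in every LL2 library. The CT26 level of H2-Q2 was 96.5 ± 2.73 TPM and that of Rpl39l was 174 ± 19.1 TPM. Esm1, a proteoglycan of activated endothelium and some tumours (-6.78), Tpsab1, a mast cell tryptase (-6.37), and Zfp985, one of a cluster of zinc finger copies (-5.83), were the remaining named genes. A further 15 predicted or clone-named genes had differences as large among those lower in LL2, and none among those higher. The mm10 genome is that of C57BL/6J, so reads of BALB/c alleles of polymorphic families may be placed differently, and its part was not tested. Nor was the part of strain differences in expression or gene content tested, for Gbp2b and Tpsab1 as for the other named genes.

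**Figure D1:**
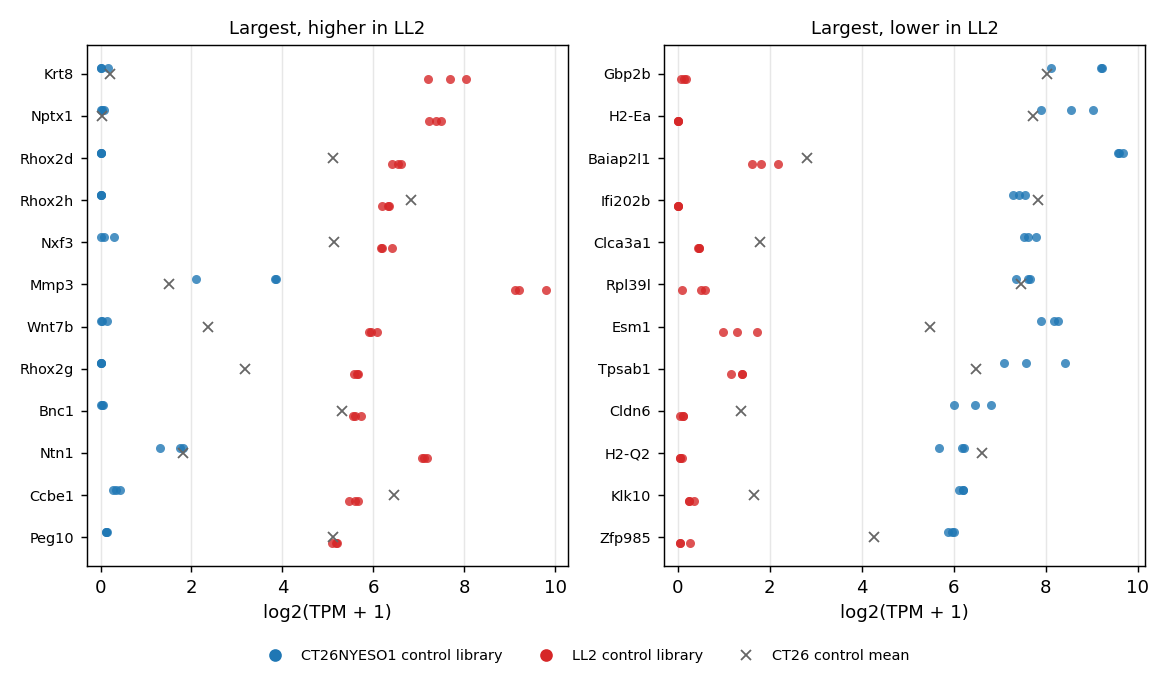
Level of the 12 largest differences in each direction, as log2(TPM + 1), with 1 point for each of the 3 CT26NYESO1 (blue) and 3 LL2 (red) control libraries and a cross for the log2 of the CT26 control mean TPM plus 1. The blue and red points do not overlap for any of the 24 genes, and the crosses lie near either group, depending on the gene.

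Genes induced by interferon gamma were lower in LL2 almost throughout. Of 28 members, all tested, 26 were at least 2-fold lower in LL2 and none higher, against 10.2% and 10.1% of all genes. The median was -2.76 against 0.11 over all genes. Socs1, a feedback inhibitor of cytokine signalling, was lower by less than 2-fold, and Cxcl10 did not pass the test at -1.38 (limma adjusted p = 0.0537). Cxcl10 lay near the threshold, and with 1 library left out its difference ranged from -1.79 to -0.90 (limma adjusted p up to 0.132). Gbp4, a guanylate-binding protein that acts against intracellular pathogens, was listed at 274, 118 and 250.00 TPM in CT26NYESO1 and 4.29, 9.83 and 4.49 TPM in LL2 (-4.89 ± 0.449, limma adjusted p = 0.000315). CT26NYESO1 library 2 was the lowest of its group for Gbp4 and still far above every LL2 library. Gbp10, a further member of the family, had 34.9, 16 and 29.8 TPM against 0.498, 1.8 and 0.774 TPM (-3.77), and Serpina3g, a serine protease inhibitor of activated lymphocytes and macrophages, 151, 78.5 and 168 TPM against 4.14, 14.6 and 7.18 TPM (-3.87). Several of these genes are near-identical copies (Gbp6 and Gbp10, Tgtp1 and Tgtp2), whose separate values are uncertain.

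Transcripts of the cytokine itself were low in both lines, and lower in LL2. Ifng was at 4.26, 3.29 and 5.04 TPM in CT26NYESO1 and 0.241, 0.343 and 0.171 TPM in LL2 (-2.04 ± 0.154, limma adjusted p = 6.92e-06), with no overlap. Cxcl9, a chemokine for T cells that interferon gamma induces, was at 189.7, 89.4 and 195 TPM against 4.77, 32.3 and 6.87 TPM (-3.71 ± 0.759, adjusted p = 0.00779 in limma). The highest LL2 library for Cxcl9 was library 2 and the lowest CT26NYESO1 library was also library 2, and they did not meet. Summed over the 28 genes, CT26NYESO1 libraries held 4606, 2348 and 4445 TPM and LL2 libraries 348, 883 and 534 TPM. Ifng and Cxcl9 were chosen here after their values were seen.

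Promoters of the list are shown because its members were lower together. RefSeq windows (build GRCm38.p6, 250 bases before to 50 after a start) were found for 16 of the 28 genes. The core of the interferon-stimulated response element, searched as GAAANNGAAA on both strands, stood in 12 of these 16 (75.0%) and in 1079 of all 27025 genes with a window (3.99%). The gamma-activated site, searched as TTCNNNGAA, which reads the same on both strands, stood in 9 of 16 (56.2%) and in 9.55% of all genes. These motifs were chosen because they are the known sites of factors that interferons activate, and a match says nothing of binding in these tumours. The list was chosen for its response to interferon gamma, so high shares may follow from that choice. Why the list was lower in LL2 was not tested. Other lists were searched the same way. The core stood in 3 of 14 MHC class I presentation, 2 of 14 nonclassical class I and 0 of 8 class II genes. It stood in 2 of 22 killer cell, 0 of 16 T cell, 1 of 17 macrophage and 0 of 33 collagen genes. The gamma-activated site stood in 1, 1, 1, 4, 4, 1 and 2 of these genes, in that order. Bases 150 to 13 before the start are printed for 3 genes, 5′ to 3′ on the gene's strand, with matches in capitals, for Gbp2b (chr3:142594697-142594834, plus strand), Igtp (chr11:58199406-58199543, plus strand) and Tgtp1 (chr11:48992259-48992396, minus strand).
Gbp2b: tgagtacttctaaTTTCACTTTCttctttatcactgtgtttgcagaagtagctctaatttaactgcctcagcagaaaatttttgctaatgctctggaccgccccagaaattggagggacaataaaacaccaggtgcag
Igtp: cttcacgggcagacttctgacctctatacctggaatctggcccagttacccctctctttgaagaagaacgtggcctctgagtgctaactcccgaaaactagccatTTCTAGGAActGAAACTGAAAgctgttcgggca
Tgtp1: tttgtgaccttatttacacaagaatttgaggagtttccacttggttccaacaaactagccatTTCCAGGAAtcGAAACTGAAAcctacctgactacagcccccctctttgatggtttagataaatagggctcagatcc
In Gbp2b the match, read on the opposite strand, starts 137 bases before the transcript. Igtp and Tgtp1, GTPases that act on the vacuoles of intracellular parasites, each carry a gamma-activated site match followed after 2 bases by a response element core, which starts 34 and 77 bases before the transcript. Igtp was at 270.3, 134 and 252 TPM in CT26NYESO1 and 22.1, 71.6 and 42.1 TPM in LL2 (-2.33), and Tgtp1 at 148, 66.7 and 146 TPM against 4.81, 15.3 and 6.55 TPM (-3.67). Both were chosen after their values and sequences were seen.

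Of 34 tested genes known for their response to type I interferon, 8 were at least 2-fold lower in LL2 and 1 higher, with a median of -0.81. Ifi44 was at 149, 93 and 95.6 TPM in CT26NYESO1 and 7.87, 36.6 and 24.2 TPM in LL2 (-2.45). Zbp1, a sensor of Z-form nucleic acid that triggers cell death, had a log2 difference of -2.35, and Ifi27l2a, a small interferon-induced mitochondrial protein, of -2.32. LL2 library 2 was the highest LL2 library for these genes and library 1 the lowest. Without LL2 library 2 the number of lower genes was 18, and without LL2 library 1 the median was -0.41. No gene was higher at 2-fold without LL2 library 2 or 3, without any 1 CT26NYESO1 library, or under either rescaling. The response element core stood in 14 of the 23 members with a window (60.9%), in a list likewise chosen for its response to interferon. Of 13 tested members of the p200 family of DNA sensors, 5 were at least 2-fold lower and 2 higher. Those higher were Ifi213, at 0.62, 0.165 and 0.16 TPM in CT26NYESO1 and 4.43, 14.2 and 8.51 TPM in LL2 (2.83), and Ifi206 (1.71), so this family did not move as one. Without LL2 library 1 there were 4 higher.

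The machinery of MHC class I presentation was mostly lower in LL2. Of 17 tested members, 11 were at least 2-fold lower and none higher, with a median of -1.32. Psmb9, a subunit of the immunoproteasome that cuts peptides for presentation, was at 165, 87.6 and 149 TPM in CT26NYESO1 and 7.83, 21.2 and 13 TPM in LL2 (-3.21 ± 0.42, limma adjusted p = 0.00133). Tap1, a subunit of the transporter that brings peptides into the endoplasmic reticulum, was at 218, 108 and 193 TPM against 18.8, 45.4 and 27.1 TPM (-2.49), and its partner Tap2 had a difference of -1.56. The groups did not overlap for any of these. The other immunoproteasome subunits, Psmb8 (-2.02) and Psmb10 (-1.32), and the proteasome activator Psme2 (-1.13) were lower too.

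The presenting molecules themselves were lower as well. H2-K1, a classical class I heavy chain, was at 1779, 1169 and 1659.5 TPM in CT26NYESO1 and 274, 659.96 and 386 TPM in LL2 (-1.87). H2-D1, another classical heavy chain, had -1.52. Heavy chain genes are polymorphic between the strains, so reads of BALB/c alleles may be placed differently on mm10, and single values are uncertain. B2m, their light chain, was at 3687, 2892 and 3733 TPM against 1105, 2109.7 and 1359 TPM (-1.22). Nlrc5, the transactivator of class I genes, was at 60.3, 36.8 and 53.7 TPM against 9.9, 24.8 and 13.2 TPM (-1.66), and Tapbpl, a peptide editor, at -1.58. Psme1 (-0.78), Erap1 (-0.68), which trims peptides, and Calr (-0.65), a chaperone, were called lower by less than 2-fold. So was Tapbp, the tapasin bridge (-0.86), but it missed the threshold without any 1 of 4 libraries, CT26NYESO1 1 or 3 or LL2 1 or 3 (adjusted p up to 0.106). The chaperones Canx (0.76) and Pdia3 (0.42), which also serve general protein folding, were called higher in LL2.

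Nonclassical class I genes of the Q, T and M regions showed some of the widest gaps. Of 16 tested, 14 were at least 2-fold lower in LL2, with a median of -2.28, and the 2 higher ones were Mr1 (1.58) and Cd1d1 (1.05), which present metabolites and lipids and do not lie in the MHC on chromosome 17. Cd1d1 stayed called but was under 2-fold without CT26NYESO1 library 2, without LL2 library 3 and under median-of-ratios rescaling, which left Mr1 as the 1 higher at 2-fold. H2-Q4 was at 697, 428 and 697 TPM in CT26NYESO1 and 22.8, 68.3 and 39.5 TPM in LL2 (-3.87). H2-Q10 (-3.85) and H2-Q5 (-3.71) followed. These genes are close copies of each other and are polymorphic between the strains, so single values are uncertain. Mr1 and Cd1d1 were named after their values were seen.

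MHC class II genes were lower in LL2, but the size of the set rested on single libraries. Of 10 tested, 9 were at least 2-fold lower, with a median of -1.58, and the exception was H2-Ob (0.89), a chain that tempers peptide loading in B cells. Without CT26NYESO1 library 1 the number was 4, without CT26NYESO1 library 3 it was 3, and without LL2 libraries 1 or 3 it was 5. Cd74, the invariant chain, was at 1126, 469 and 943 TPM in CT26NYESO1 and 112, 348 and 204 TPM in LL2 (-1.98 ± 0.535, limma adjusted p = 0.0215). The lowest CT26NYESO1 library and the highest LL2 library of Cd74, both library 2, were close. H2-Aa (-1.46), H2-Ab1 (-1.6) and H2-Eb1 (-1.47), the classical chains, and their transactivator Ciita (-1.05) each lost the call without any 1 of those 4 libraries, Cd74 without CT26NYESO1 1 or 3 and H2-DMb1 (-1.55) without CT26NYESO1 3. Ciita overlapped between the groups. H2-DMb2, a chain of the peptide exchange factor, was at 57.4, 27.6 and 43.9 TPM against 1.79, 4.51 and 3.15 TPM (-3.4), and H2-DMa had -1.91. H2-DMb2, H2-DMa and H2-Ea kept the call without each library in turn.

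**Figure D2:**
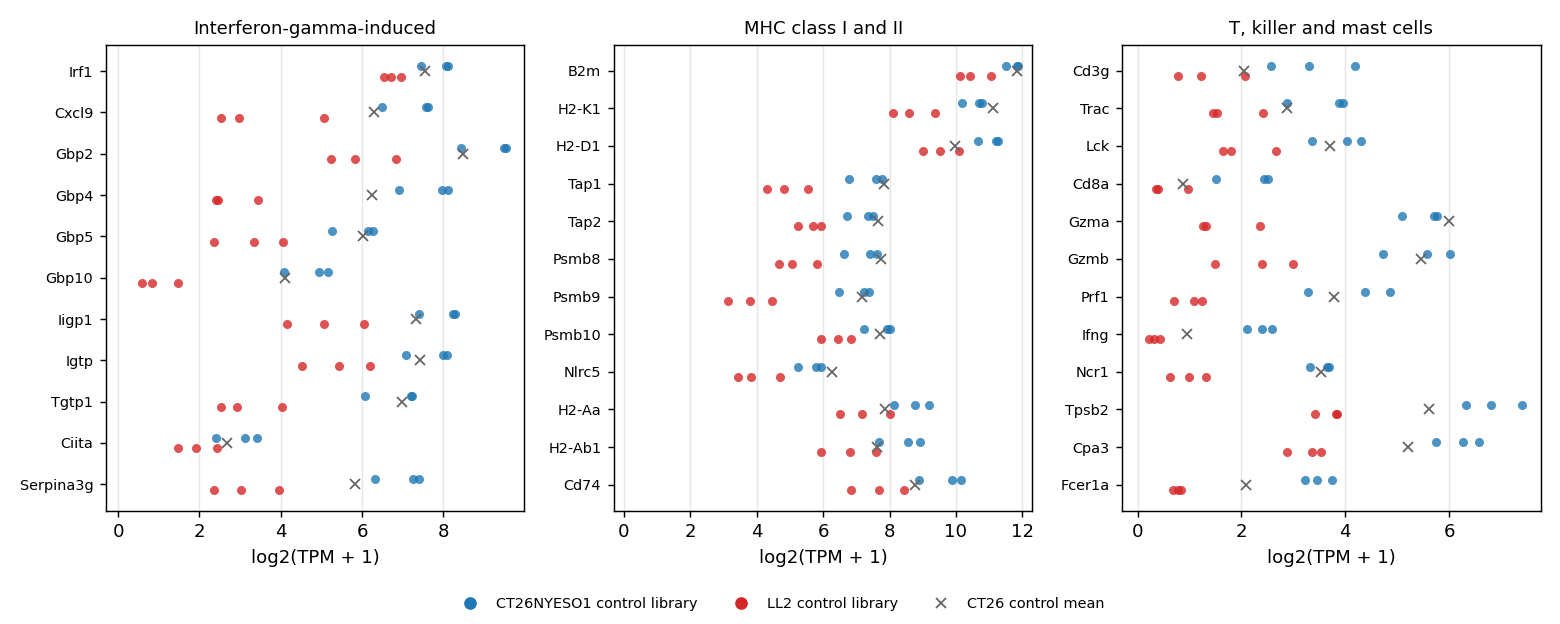
Level as log2(TPM + 1) of interferon-gamma-induced genes, MHC genes and T, killer and mast cell genes, with 1 point per control library of CT26NYESO1 (blue) and LL2 (red) and a cross for the log2 of the CT26 control mean TPM plus 1. For Gbp4, Psmb9 and Tpsb2 the lines are far apart, and for Ciita and H2-Aa the highest red and the lowest blue point nearly meet or cross.

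Genes of T cells and killer cells were mostly lower in LL2. Of 25 tested T cell genes, 16 were at least 2-fold lower and none higher (median -1.17), and of 22 killer and cytotoxic genes 17 were lower and 1 higher (median -2.02). Without LL2 library 1 the lower counts were 10 and 11, and without CT26NYESO1 library 1 there was 1 T cell gene higher. Lck, the kinase next to the T cell receptor, was at 18.6, 9.25 and 15.3 TPM in CT26NYESO1 and 2.15, 5.31 and 2.49 TPM in LL2 (-1.85). Trbc1 (-1.89) and Trac (-1.77), constant parts of the receptor, and Cd3g (-1.99), one of its signalling chains, were lower too. Gzma, a granzyme of killer cell granules, was at 51.4, 33.1 and 53.4 TPM against 1.5, 4.14 and 1.39 TPM (-3.87 ± 0.349, limma adjusted p = 0.00014), and Prf1, the pore-forming perforin, at 19.8, 8.76 and 28 TPM against 0.617, 1.35 and 1.14 TPM (-3.17). LL2 library 2 was the highest LL2 library for each of these 6 genes and did not reach CT26NYESO1.

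Summed over the T cell list, CT26NYESO1 libraries held 187, 93.1 and 147 TPM and LL2 libraries 36, 67.4 and 44.3 TPM. The killer and cytotoxic list held 312, 177 and 525 TPM in CT26NYESO1 and 38.2, 73.4 and 52.6 TPM in LL2. Of 10 tested genes shared by all leukocytes, 7 were called lower in LL2, against 27.8% of all genes, and none higher, with a median of -0.62. At least 2-fold lower was 1 of them, Arhgap15 (-1.54), a regulator of Rac. The summed levels overlapped, at 703 to 1049 TPM in CT26NYESO1 and 567 to 740 TPM in LL2. The part of leukocyte content in the interferon and MHC differences was not tested. Gzmd, a granzyme of a gene cluster with near-identical copies, ranged from 3.25 to 71.2 TPM within CT26NYESO1 and lost its call without CT26NYESO1 library 1 or any LL2 library (-3.4, limma adjusted p = 0.0388). The gene higher in LL2 was Klra4, a Ly49 receptor of natural killer cells. It was listed at 0 in every CT26NYESO1 library and in parental CT26, and at 12, 9.77 and 9.13 TPM in LL2. Ly49 gene content differs between mouse strains.

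Mast cell genes were lower in LL2 without overlap, and groups did not overlap in 72.6% of all genes tested. Tpsb2, a tryptase, was at 112, 78.7 and 168 TPM in CT26NYESO1 and 13.3, 13.1 and 9.65 TPM in LL2 (-3.16 ± 0.294, limma adjusted p = 0.000238). Cpa3, the mast cell carboxypeptidase (-2.94), Cma1, a chymase (-2.9), and Fcer1a, the IgE-binding chain of their receptor (-2.71), were lower in LL2 as well. Of 7 tested genes of mast cells, basophils and eosinophils, 6 were at least 2-fold lower and none higher, and eosinophil genes such as Epx and Siglecf were listed at most at 0.212 TPM. Of 17 B and plasma cell genes, 4 passed the filter on low values and all 4 were at least 2-fold lower, which fell to 2 without CT26NYESO1 library 2 or LL2 libraries 1 or 3. Ighm, the heavy chain of IgM, was at 61.4, 27 and 18.4 TPM against 10.8, 10.6 and 8.66 TPM and lost its call without CT26NYESO1 library 2 or any LL2 library (-1.56, limma adjusted p = 0.0266).

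Macrophage genes had the highest summed levels of the leukocyte lists in both lines. Of 22 tested, 10 were at least 2-fold lower in LL2 and 1 higher (median -0.89), with summed levels of 7365 to 7528 TPM in CT26NYESO1 and 3442 to 3922 TPM in LL2. Arg1, an arginase of suppressive macrophages, was at 217, 366 and 493 TPM in CT26NYESO1 and 69.9, 45.5 and 70.9 TPM in LL2 (-2.46, limma adjusted p = 0.00197). Mrc1, a mannose receptor, was at 139.5, 240.3 and 166 TPM against 73.4, 45.4 and 51.5 TPM (-1.65), and Cd163, a haemoglobin scavenger receptor, had -2.26 with CT26NYESO1 library 2 far above the other libraries at 47.7 TPM. Mertk, a receptor for dying cells, went the other way, at 6.05, 6.73 and 6.71 TPM against 26.1, 22.3 and 23.5 TPM (1.74). The monocyte list was mixed. Chil3, a chitinase-like protein, was higher in LL2 (2.48), while Spn (-2.86), the sialoglycoprotein CD43, and Plac8 (-1.97) were lower, and its median of -0.15 changed sign without CT26NYESO1 library 1 (0.03) or LL2 library 1 (0.16).

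Of 15 tested dendritic cell genes, 3 were at least 2-fold higher in LL2 and 2 lower. The lower count was 1 without CT26NYESO1 library 1 or 3 or LL2 library 1 or 3, with the replicate block and under quantile normalization, and 3 without LL2 library 2, where 2 were higher. The list's median of 0.15 turned to -0.03 without LL2 library 2. Clec9a, a receptor of cross-presenting dendritic cells, was at 0.824, 0.908 and 0.506 TPM in CT26NYESO1 and 13.3, 12 and 11.8 TPM in LL2 (2.94 ± 0.131, limma adjusted p = 2.91e-07), and Clec10a, a lectin of another subset, was lower in LL2 (-1.34). Of 20 neutrophil genes, 8 passed the filter, 3 of them at least 2-fold higher in LL2, with a median of 0.12 that turned to -0.05 without CT26NYESO1 library 2. S100a9, a subunit of calprotectin, was at 1.78, 1.72 and 1.95 TPM in CT26NYESO1 and 8.1, 13.6 and 7.15 TPM in LL2 (1.87), Il1r2, the decoy receptor for interleukin 1, had 1.93 and S100a8 1.19. Defining neutrophil genes such as Ly6g, Camp and Elane were at 0.223 TPM or less in every library.

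Of 18 tested chemokines that do not chiefly attract neutrophils, 11 were called lower in LL2 and 3 higher, against 27.8% and 40.5% of all genes. At 2-fold 9 were lower and 2 higher. Ccl8, a chemokine for monocytes and other leukocytes, was at 523, 631 and 655 TPM in CT26NYESO1 and 23.4, 36.8 and 20.6 TPM in LL2 (-4.47 ± 0.223, limma adjusted p = 1.19e-05). Ccl12, another monocyte chemokine (-2.15), and Cxcl14 (-2.59) were lower, and Cx3cl1, the membrane-bound fractalkine, was higher at 1.68, 1.21 and 1.46 TPM against 14.4, 14 and 12.2 TPM (2.57). Of 13 neutrophil attractants and colony-stimulating factors, 5 were at least 2-fold higher and 1 lower (2 lower under median-of-ratios rescaling), the higher ones including Cxcl1 (2.01) and Cxcl5 (1.7). Of 18 complement genes, 13 were called lower and 1 higher, against 27.8% and 40.5% of all genes, and 8 and none at 2-fold. C3, the central component, was at 88.2, 61.6 and 103 TPM against 5.28, 13.2 and 6.26 TPM (-3.27), C4b had -3.2, C1s1, a protease of the first complex, -2.98 and Serping1, its inhibitor, -3.16.

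Checkpoint genes were mostly lower in LL2, with 1 exception among those called. Cd274, the ligand PD-L1, was at 56.4, 29.5 and 63.1 TPM in CT26NYESO1 and 6.36, 14.6 and 9.65 TPM in LL2 (-2.17 ± 0.405, limma adjusted p = 0.00545), and Pdcd1lg2, the ligand PD-L2, at 6.89, 2.69 and 12.2 TPM against 0.256, 0.465 and 0.566 TPM (-2.35). Cd276, the ligand B7-H3, was higher in LL2, at 13, 13.8 and 9.88 TPM against 50.6, 45.6 and 49.3 TPM (1.91). Of 23 tested, 14 were called lower, 10 of them at least 2-fold, and Cd276 was the 1 higher (median -0.89). Of 9 listed ligands of the killer cell receptor NKG2D, 5 had values and 4 were tested. Raet1e (3.01) and Raet1d (1.72) were higher, and H60b (-2.28) and Ulbp1 (-1.7) lower. As the mm10 genome is that of C57BL/6J, ligand genes or alleles of BALB/c may be missed, which was not tested.

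**Figure D3:**
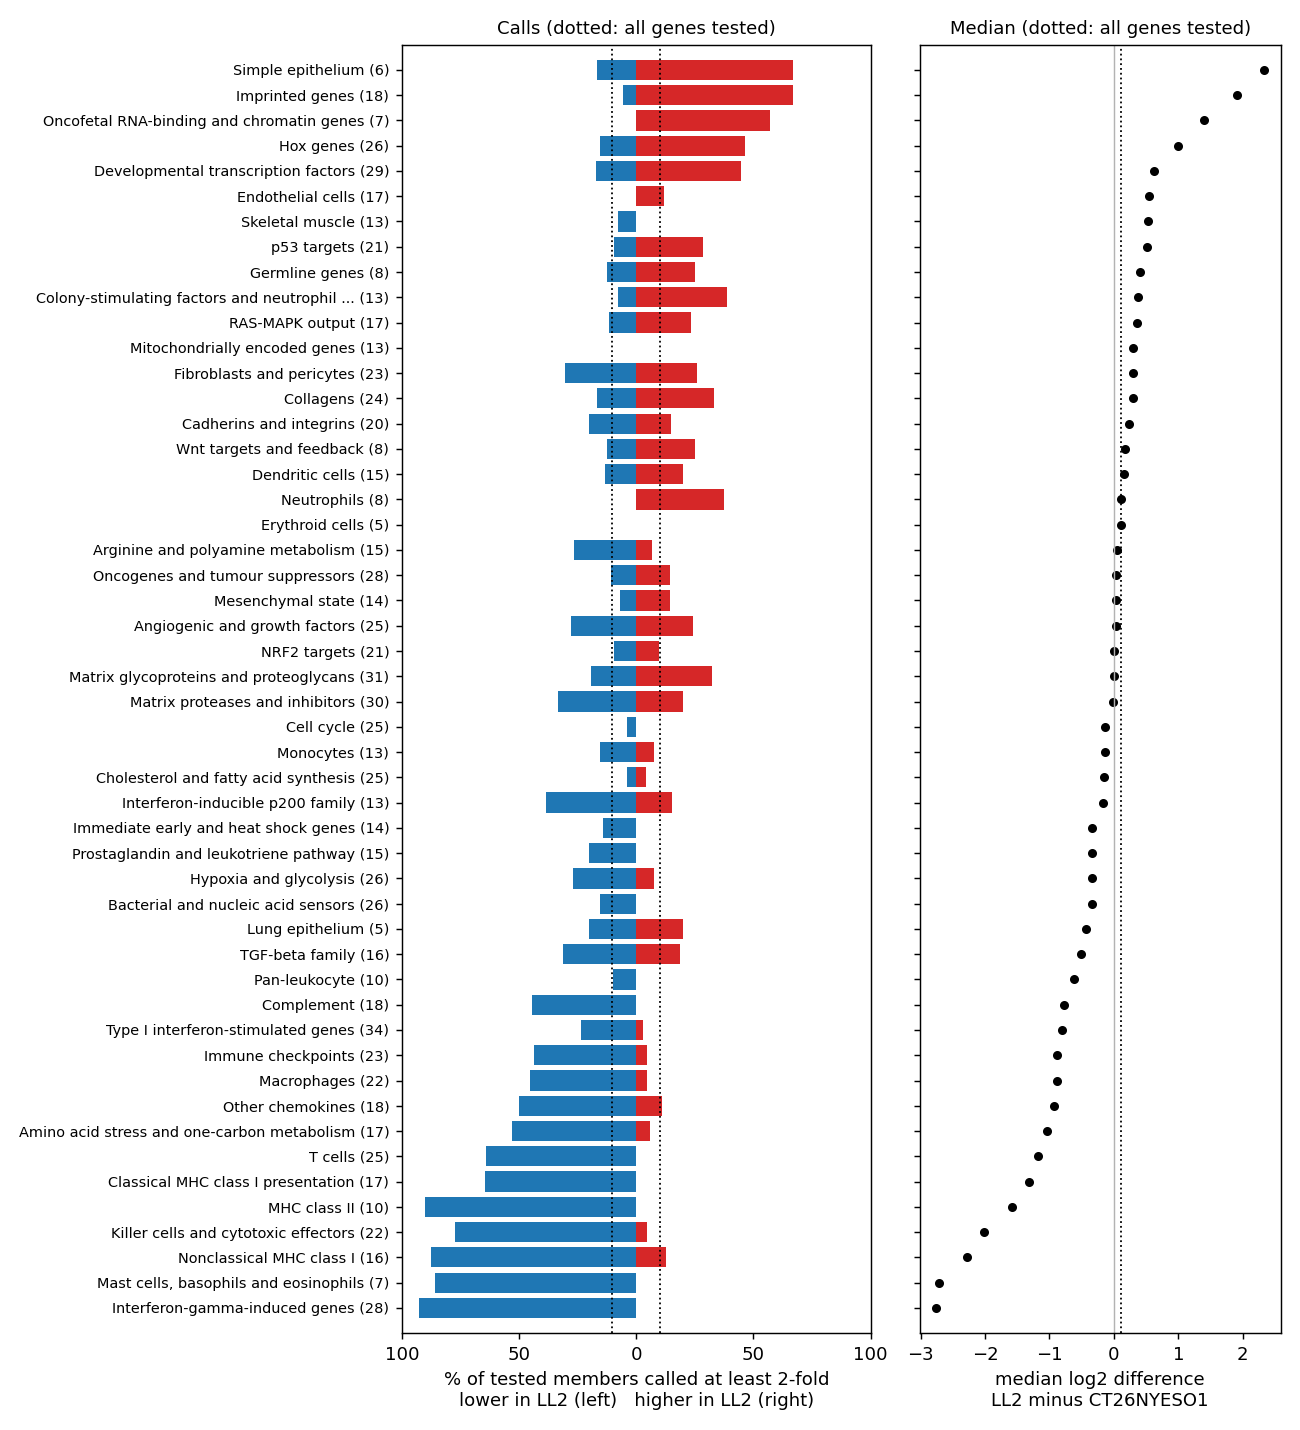
For each list with at least 5 tested members (number in brackets), the percentage called at least 2-fold lower in LL2 (blue, left) or higher (red, right), and the median log2 difference, with dotted lines for all 15232 genes tested (10.2% lower, 10.1% higher, median 0.11). Interferon-gamma-induced genes lie at the bottom with 26 of 28 lower, and simple epithelium and imprinted genes at the top.

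Marks of cell identity also divided the lines. Of 20 genes of simple epithelium, 6 passed the filter on low values, 4 of them higher in LL2 and 1 lower. Krt18, the partner of Krt8, was at 13.8, 13.8 and 8.86 TPM in CT26NYESO1 and 305, 227 and 283 TPM in LL2 (4.39), and Ocln, a tight junction protein, at 0.0863, 0.0422 and 0.0502 TPM against 7.65, 7.88 and 6.86 TPM (3.0). Krt7, a keratin of ductal epithelia, was the lower one (-1.42). Cdh1, the epithelial cadherin, was at most 1.41 TPM in any library. Krt20, a keratin of gut epithelium, was at 5.09, 7.48 and 21.6 TPM in CT26NYESO1 and under 1 TPM in LL2 (-2.92).

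Of 29 tested developmental transcription factors, 13 were at least 2-fold higher in LL2 and 5 lower. Sox2, a factor of stem cells and foregut epithelium at chromosome 3, 34650405 to 34652461, was at 10.7, 16.1 and 19.5 TPM in CT26NYESO1 and listed at 0 in every LL2 library (-4.0 ± 0.196, limma adjusted p = 5.45e-07), with 0.118 ± 0.12 TPM in parental CT26. Msx1, a homeobox repressor, was lower too (-3.81). Dlx2, a homeobox factor of neural crest and forebrain, went from at most 0.027 TPM in CT26NYESO1 to 23.6, 19.3 and 20.6 TPM in LL2 (4.45), and Meis1, a Hox cofactor, from 0.661, 0.674 and 0.667 TPM to 23.9, 21.2 and 22.6 TPM (3.82). Hopx, a homeodomain protein of alveolar and stem cells, was at 5.89, 4.81 and 4.98 TPM against 70.9, 66.6 and 65.9 TPM (3.47). Each of these genes had separate groups.

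Hox genes, which mark position along the body axis, differed by cluster member. Of 26 tested, 12 were at least 2-fold higher in LL2 and 4 lower, with a median of 0.99. Hoxd9 was at 0.542, 1.23 and 0.444 TPM in CT26NYESO1 and 25.8, 22.2 and 23.2 TPM in LL2 (3.86), and its neighbour Hoxd10 had 3.36. Hoxc6, at 21.5, 23.5 and 20.6 TPM against 2.04, 0.984 and 1.12 TPM (-3.29), and Hoxa9, at 15.9, 15.6 and 15 TPM against 1.58, 0.762 and 1.07 TPM (-2.96), were lower. The other lower ones, Hoxc4 and Hoxc5, lie beside Hoxc6, and were picked out after their values were seen.

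Imprinted genes, expressed from 1 parental copy, were mostly higher in LL2. Of 18 tested, 12 were at least 2-fold higher and 1 lower, with a median of 1.92. Peg10 was at 0.0935, 0.0993 and 0.0902 TPM in CT26NYESO1 and 35.1, 33.1 and 35.7 TPM in LL2 (5.02 ± 0.0981, limma adjusted p = 3.39e-09). Peg3, a zinc finger regulator of growth, was at 0.439, 0.699 and 0.623 TPM against 40.4, 37.9 and 32.8 TPM (4.58). H19, a growth-restraining long RNA, varied within CT26NYESO1, at 5.81, 0.475 and 10.6 TPM, and was at 150.2, 101 and 139 TPM in LL2 (4.73). Airn, the antisense RNA of the Igf2r locus, was at 0.878, 1.08 and 0.547 TPM against 54.4, 45.9 and 46.7 TPM (4.77). It overlaps Igf2r on the opposite strand, and Igf2r was also higher (2.38). The sources used here give no strand setting for the counting, so reads of the pair may not be told apart. Oncofetal genes followed the same direction, with 4 of 7 higher and none lower, among them Dppa4 (2.84), a chromatin factor of early embryos, and Igf2bp3 (2.56), an RNA-binding protein of fetal tissue and tumours.

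Of 28 tested oncogenes and tumour suppressors, 4 were at least 2-fold higher in LL2 and 3 lower, close to the background. Egfr, the receptor of epidermal growth factor, was at 1.03, 1.27 and 0.746 TPM in CT26NYESO1 and 21, 22.6 and 20.4 TPM in LL2 (3.48 ± 0.124, limma adjusted p = 8.27e-08). Fgfr1 was at 34.3, 34.6 and 30.1 TPM against 321, 284 and 296 TPM (3.15), and Pdgfra (2.05) and the oncogene Myc (1.52) were higher as well. Parental CT26 resembled LL2 in the level of Fgfr1, at 285 ± 29.9 TPM, but not in that of Myc, at 125 ± 10.3 TPM. The 3 lower were Pdgfrb (-1.33), a receptor of platelet-derived growth factor, Cdkn2a (-1.14), a cell cycle inhibitor gene, and the receptor kinase Axl (-1.03), named after their values were seen. Spry1 (3.6) and Spry2 (2.36), feedback inhibitors of receptor signalling, were higher in LL2, and Dusp4, a MAP kinase phosphatase (-1.38), and Ccnd1, cyclin D1 (-1.12), lower. Of the 17 tested RAS-MAPK genes that hold these, 4 were at least 2-fold higher and 2 lower, and the numbers were 2 and 2 without LL2 library 2 or under either rescaling.

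Of 8 tested Wnt targets and feedback genes, 2 were at least 2-fold higher in LL2 and 1 lower, with a median of 0.17. Without CT26NYESO1 library 1 there were 4 higher, and without CT26NYESO1 library 3 there were 2 lower and the median was -0.09. Dkk2, a Wnt antagonist, was at 6.45, 17.5 and 10.6 TPM in CT26NYESO1 and 242, 249.8 and 278 TPM in LL2 (4.46), and Apcdd1, a membrane-bound Wnt inhibitor, at 1.71, 2.22 and 2.09 TPM against 87.1, 81.7 and 92.1 TPM (4.87). Lef1, a transcription factor of the pathway, was lower (-1.67). In the TGF-beta family, Fst, the activin antagonist follistatin, was at 45.3, 45.3 and 84.2 TPM against 1.6, 3.64 and 2.49 TPM (-4.03) and Inhba, an activin subunit, had -2.43, whereas Fstl1 (2.11) and Bmp1 (1.97), a procollagen protease, were higher. Of 16 tested in this family, 3 were higher and 5 lower.

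Collagens did not move as a block. Col1a2, a chain of type I collagen, was at 729.8, 720.4 and 681 TPM in CT26NYESO1 and 36.5, 16.5 and 27 TPM in LL2 (-4.75 ± 0.279, limma adjusted p = 4.09e-05). Its partner chain Col1a1 was lower too, at 158, 179 and 141 TPM against 47.4, 18.5 and 27.8 TPM (-2.41), while Col3a1, the fibrillar collagen of loose tissue, was at 320.5, 468 and 210.5 TPM against 2625, 2178 and 2596 TPM (2.96). LL2 library 2 was the lowest LL2 library for all 3. Col7a1, which anchors basement membranes (4.29), and Col18a1, the source of endostatin (3.05), were higher. Of 24 tested, 8 were at least 2-fold higher and 4 lower. Col1a1 was named after its values were seen.

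Fibroblast and matrix genes were mixed as well, in 23 and 31 tested genes with 6 and 10 higher and 7 and 6 lower. Lum, a small proteoglycan that orders collagen fibrils, was at 10.8, 18.3 and 7.47 TPM in CT26NYESO1 and 377, 301 and 330.4 TPM in LL2 (4.75). Fbln2, a matrix fibulin, was at 163, 174 and 173 TPM against 13.8, 10.4 and 11.8 TPM (-3.72). Vcan, the large proteoglycan versican (4.24), Nid1, a basement membrane linker (3.4), and Fbn1, fibrillin 1 (2.87), were higher. Among matrix proteases and their inhibitors, 6 of 30 were higher and 10 lower, with Mmp3 far above the rest and Timp3 (-2.4) and the collagen cross-linkers Lox (-2.38) and Loxl1 (-2.08) lower. Endothelial genes gave 2 higher of 17 and none lower, Eng (1.93) and Vwf (1.77), with summed levels of 152 to 199 TPM in CT26NYESO1 and 249 to 312 TPM in LL2.

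Of 17 tested genes of amino acid stress and one-carbon metabolism, 9 were at least 2-fold lower in LL2 and 1 higher (median -1.04). Vldlr, a lipoprotein receptor that this stress programme induces, was at 36.1, 36.5 and 35 TPM in CT26NYESO1 and 1.23, 1.51 and 0.706 TPM in LL2 (-4.12 ± 0.143, limma adjusted p = 7.16e-08), though parental CT26 also held only 0.401 ± 0.285 TPM. Aldh1l2, a mitochondrial folate enzyme, was at 36.9, 34.9 and 27.7 TPM against 2.92, 4.83 and 2.87 TPM (-2.93), Chac1, which degrades glutathione, had -2.57 and Trib3, a stress pseudokinase, -1.6. Hypoxia and glycolysis genes moved in both directions, 2 of 26 higher and 7 lower. Egln3, an oxygen-sensing hydroxylase, was at 5.81, 3.27 and 3.92 TPM against 136, 127 and 116 TPM (4.6) and the vasodilator Adm had 3.16, while Car9, a carbonic anhydrase of hypoxic cells, was at 42.6, 50.6 and 23.7 TPM against 3.55, 2.12 and 2.88 TPM (-3.33) and Eno2, an enolase, had -2.23.

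Proliferation genes gave little at 2-fold. Of 25 cell cycle genes, 11 were called lower and 4 higher, against 27.8% and 40.5% of all genes, with a median of -0.13. At 2-fold 1 was lower, the mitotic transcription factor Foxm1 (-1.52), and none higher. Of 13 genes encoded by the mitochondrial genome 9 were called higher and none lower, and none reached 2-fold. Their median of 0.30 fell to 0.05 under quantile normalization. Skeletal muscle genes, which mark muscle caught in the piece, varied between libraries of a group, and only Eno3, a muscle enolase, was called, at 128, 118 and 140.4 TPM against 25, 29.1 and 30.8 TPM (-2.15). Summed muscle levels were 271, 128 and 320 TPM in CT26NYESO1 and 129, 179 and 255 TPM in LL2. Without Eno3 the other 12 tested muscle genes gave no call.

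A stricter view counted genes on in one line and off in the other, with at least 5 TPM in all 3 libraries against at most 0.1 TPM in all 3. In LL2 31 genes met it and in CT26NYESO1 36. Besides those above, CT26NYESO1 but not LL2 held Kctd12, an auxiliary subunit of GABA-B receptors (21.7, 25.6 and 23.7 TPM against 0 in each LL2 library). Kctd12 was listed at 18.8 ± 0.95 TPM in OK-432-treated LL2 tumours, so its 0 in the controls may be a failed estimate and not absence. Among the 31 is Mir5130, a microRNA gene that lies within Kctd12 on the same strand and mirrors it. It was at 12.4, 12 and 5.84 TPM in LL2 controls, 0.0052 ± 0.00688 TPM in treated LL2 tumours and at most 0.00191 TPM in CT26NYESO1 controls, so its place in the count is as uncertain. Both were chosen after their values were seen.

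By chromosome, the median difference ranged from -0.15 on chromosome 5 to 0.48 on chromosome 12, where 19.2% of 526 tested genes were at least 2-fold higher in LL2, against 10.1% over all. Windows of 25 neighbouring tested genes were picked for their medians and are a description only. The highest lay on chromosome 6 from Med21 to Bicd1 (146642547 to 149563329), with a median of 1.34 and 17 genes at least 2-fold higher. Among its genes, named after their values were seen, were Arntl2, a clock factor (2.81), Pthlh, the parathyroid hormone-like hormone of tumours (1.91), and Klhl42 (2.36). Other high windows lay on chromosome 9 from Cgnl1 to Myo5c and at 4 places on chromosome 12. The lowest window, on chromosome 17 and ending at H2-M3, had a median of -1.92 with 15 genes lower, on chromosome 1 the window from Rhbdd1 to Gm10552 had -1.87 with 18 lower, on chromosome 4 the window from Vps13d to Zfp979 had -1.47 with 16 lower, and on chromosome 14 the window from Nedd8 to Gzmb had -1.37 with 12 lower. Copy number was not measured.

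**Figure D4:**
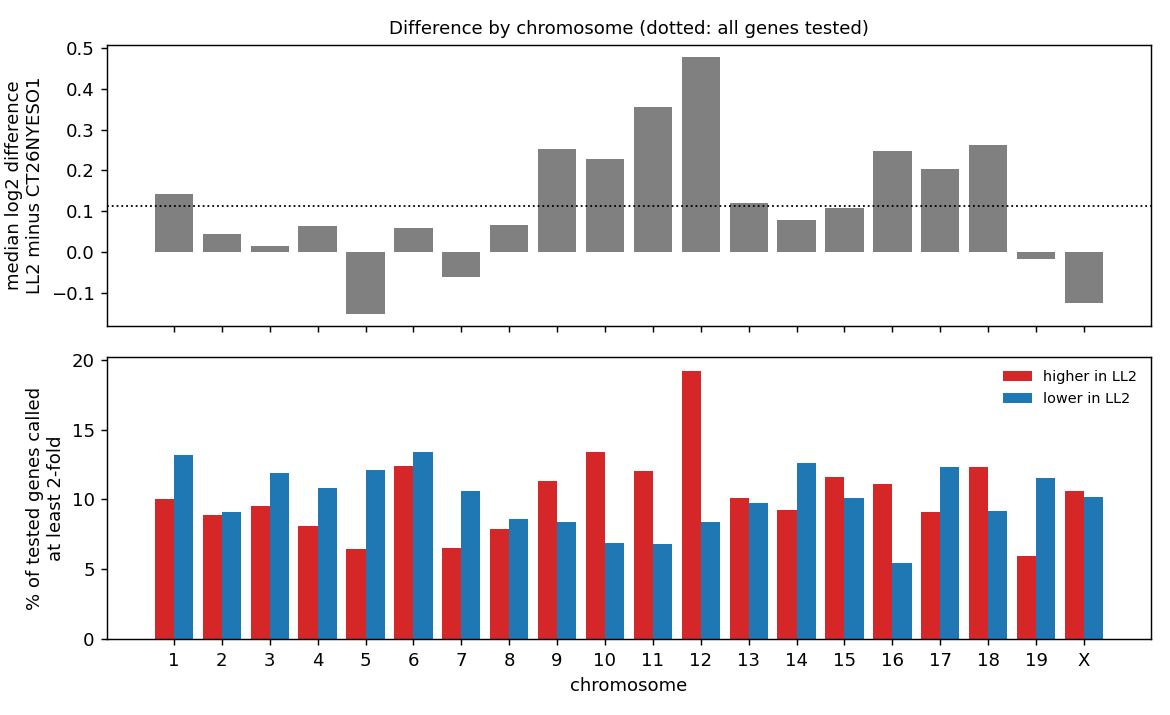
Median log2 difference (LL2 minus CT26NYESO1, top) and percentage of tested genes called at least 2-fold higher (red) or lower (blue) in LL2 (bottom) for each autosome and the X chromosome, with a dotted line at the all-gene median of 0.11. Chromosome 12 has the highest median, 0.48, and the highest share of higher genes, 19.2%.

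The same contrast was available in libraries that the comparison above did not use, the 3 LL2 and 3 CT26NYESO1 tumours treated with OK-432. There 66.6% of the 15232 genes were called, and 9.80% were at least 2-fold higher in LL2 and 10.4% lower. Of the 1533 genes at least 2-fold higher in LL2 controls, 1306 (85.2%) were so in treated tumours, 1528 (99.7%) had the same sign and none was called in the opposite direction. Of the 1551 lower genes the numbers were 1384 (89.2%), 1549 (99.9%) and none. Among the leading genes, Krt8 had 7.59 in controls and 7.47 in treated tumours, Gbp2b -8.71 and -8.14, Psmb9 -3.21 and -3.35, and Peg10 5.02 and 4.84. S100a9 (1.87 and -1.01), S100a8 (1.19 and -0.71) and Cxcl1 (2.01 and 0.26) were higher in LL2 controls, with treated values near 0 or below. The change in this difference with OK-432 did not pass the test for S100a9 (limma adjusted p = 0.516), S100a8 (0.662) or Cxcl1 (0.756). Over all genes the difference between lines changed with OK-432 in 3 genes by limma (0.0197%), with 1284 at an unadjusted p under 0.05. The 3 were Eif3j2, Rn7s1 and Rn7s2.

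**Figure D5:**
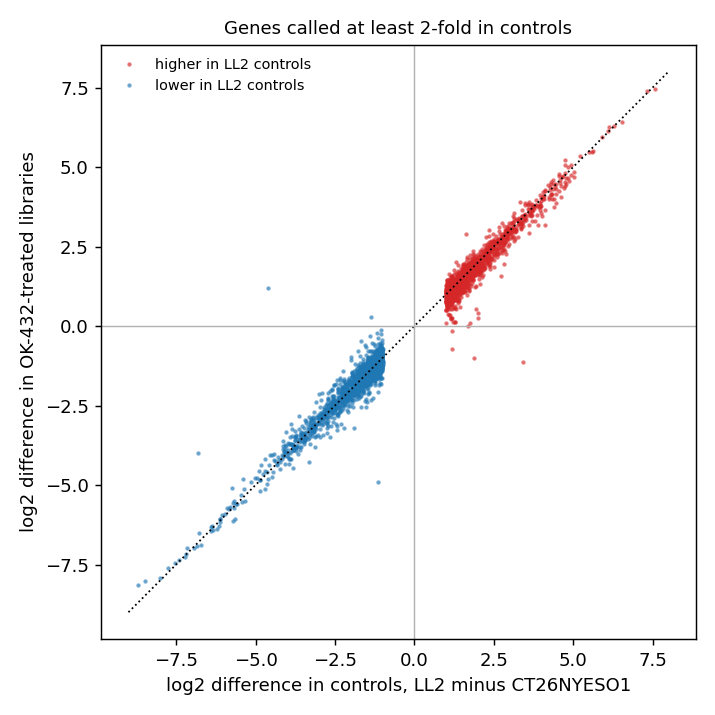
Log2 difference, LL2 minus CT26NYESO1, in controls (horizontal) and in OK-432-treated libraries (vertical) for the 3084 genes called at least 2-fold in controls, higher in LL2 in red and lower in blue, with the line of equality dotted. Points lie along the line, and 1528 of 1533 red and 1549 of 1551 blue points keep their sign.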

How the data were processed

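Bulk RNA was measured in 18 libraries, of which the 6 control libraries of LL2 and CT26NYESO1 were compared. TRIzol extraction and a stranded mRNA kit were used, per the labels' protocols. The authors deposited 1 table of TPM values, 55291 genes that add up to 1000000 in every library. The reads had gone through Trim Galore 0.6.5, STAR 2.7.3a and StringTie 2.1.2 on mm10, per the submitters' processing notes. The sources used here give no annotation, strand setting or filter. Depth is unknown, because TPM does not keep it, and no counting interval or floor is given.

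Values were analysed as log2(TPM + 1) with limma 3.58.1 in R 4.3.3 (trended, robust empirical Bayes, no covariate, 4 residual degrees of freedom), for the 15232 genes that reached 1 TPM in 3 or more of the 6 libraries. Calls used a Benjamini-Hochberg adjusted p under 0.05 over all tested genes, and 2-fold calls added an absolute log2 difference of at least 1. The treated libraries and the change of the difference with OK-432 (12 libraries) were fitted the same way on the same genes. The procedure was tested on simulated data. Lists, 58 in all, are described by counts and medians, with no test of a list. The members and lists were chosen with earlier results of these data known. Named genes are the 12 largest 2-fold calls in each direction with separate groups and, in the higher group, a mean no lower than 5 TPM, up to 4 of the largest 2-fold calls of each list described, and all members of the MHC, strain and sex-linked lists. Some genes that this rule selects are not reported here. Any other gene is marked where it stands as picked with its values known. Gene positions come from GENCODE M21 on mm10, for 14942 of the tested genes. Alternatives were other pseudocounts, filters, scalings, sets of libraries in the fit, plain empirical Bayes, a replicate block and each library left out.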

Additional observations from a re-analysis of the deposited data

Results flagged for a closer look

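The difference between the lines changed with OK-432 in 3 genes, by the test of that change in limma over the 12 control and treated libraries. For Eif3j2, a translation initiation factor gene on chromosome 18, the change was -3.77 ± 0.113 on the log2 scale (adjusted p = 2.7e-09). Every treated LL2 library listed it at 0, LL2 controls averaged 13.6 ± 0.495 TPM, and CT26NYESO1 held 31.4 ± 2.1 TPM in controls and 29.2 ± 1.62 TPM in treated tumours (SD, n = 3 each). Its near-identical copy Eif3j1, chosen after its values were seen, averaged 50.2 ± 0.819 TPM in LL2 controls and 52.6 ± 2.14 TPM in treated LL2 tumours, and 24.1 ± 1.71 and 22.6 ± 0.656 TPM in CT26NYESO1.

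Rn7s1 and Rn7s2, copies of the 7S RNA of the signal recognition particle on chromosome 12, changed by -1.14 ± 0.15 and -1.14 ± 0.151 (limma adjusted p = 0.0279 and 0.0279). Rn7s1 averaged 33.2 ± 1.84 TPM in LL2 controls and 22 ± 3.54 TPM in treated LL2 tumours, against 13.1 ± 0.875 and 19.8 ± 1.43 TPM in CT26NYESO1. The values of Rn7s2 followed the same order, and the 2 genes are not independent. Whether read assignment among copies plays a part in these 3 genes was not tested.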

How the results depend on the processing

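The counts of called genes, in either direction and at 2-fold, stayed within 1.5 times of those reported under every alternative run, for controls and for treated libraries. The number of genes whose line difference changed with OK-432 was 3 and became 1 with the replicate block, 1 without any single control library, and up to 16 (CT26NYESO1 treated library 2) or 5 (library 3) without a treated one, the range over left-out libraries being 1 to 16. The cause was not tested. Median-of-ratios rescaling moved the share of higher calls from 59.3 to 49.5%. List medians near 0.11 changed sign with scaling, among them the mesenchymal (to -0.08), oncogene (-0.08), matrix glycoprotein (-0.12) and arginine (-0.07) lists. Deviations of same-numbered libraries from their group means correlated at -0.126, -0.254 and 0.105. With 3 libraries a group, these values are too few to tell whether replicate numbers pair the libraries. With the replicate block 3 MHC class II genes, H2-Ea among them, were at least 2-fold lower, in place of 9. Cd3g and Psmb10 lost their calls with that block. Cdh1, which did not pass the test at 0.04, was at -0.016 under median-of-ratios rescaling and at -0.095 (without LL2 library 3) to 0.13 (without LL2 library 1) with a library left out, and passed under none of these. S100a8 lost its call with all 18 libraries in the fit. Depth cannot be judged from TPM.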

Other observations

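Growth factors that the report does not describe differed in both directions, 6 of 25 tested at least 2-fold higher in LL2 and 7 lower. Nrg1, the neuregulin that binds Erbb receptors, was at 34.5, 38.1 and 38 TPM in CT26NYESO1 and 0.236, 0.638 and 0.484 TPM in LL2 (-4.71 ± 0.126, limma adjusted p = 1.82e-08). Areg, an Egfr ligand, went the other way, at 4.32, 4.84 and 5.32 TPM against 28.4, 29.4 and 29.1 TPM (2.37), and Pdgfc (2.75) was higher too. These genes had separate groups. The list's median of 0.03 was under the all-gene median and turned to -0.03 under median-of-ratios rescaling and to -0.02 under quantile normalization, and was as low as -0.10 without LL2 library 1.

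Of 21 tested genes of the p53 response, 6 were at least 2-fold higher in LL2 and 2 lower, against 10.1% and 10.2% of all genes. The lower count was 1 without CT26NYESO1 library 1 or 3 or LL2 library 1 or 3. Trp53inp1, which promotes cell death and autophagy, was at 6.25, 6.53 and 4.23 TPM in CT26NYESO1 and 28.2, 29.6 and 21.9 TPM in LL2 (2.06), Pmaip1, the death protein Noxa, had 1.95 and Zmat3 1.37. Plk2, a kinase of the centriole cycle, was lower, at 129, 118 and 108 TPM against 28.7, 30.7 and 28.1 TPM (-1.98). Immediate early genes gave 2 lower of 14 and none higher (1 higher without CT26NYESO1 library 1 or LL2 library 2), Egr1 at 53, 42.8 and 60.7 TPM against 7.75, 7.25 and 6.22 TPM (-2.71) and Egr2 (-1.8). Of 25 genes of cholesterol and fatty acid synthesis, 1 was at least 2-fold higher and 1 lower (2 lower under median-of-ratios rescaling), the lower being the fatty acid desaturase Scd1 (-1.42).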
